A study of Mus musculus with 6 samples.

Results

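The genes Postn, Spp1, Tnc, Sparc, Thbs1, Thbs2, Thbs3, Thbs4 and Cthrc1 encode matricellular proteins of the infarct scar. They were taken by symbol from the table of raw counts, where each matched 1 Ensembl identifier, so that 9 of the 38293 genes counted are described here. Heart tissue was sequenced from 3 control (Zeb2 fl/fl) and 3 knockout (Zeb2 cKO) samples, all from adult male mice backcrossed to C57BL/6J, 14 days after a myocardial infarction (MI) made by permanent LAD occlusion. Zeb2 cKO mice carry floxed Zeb2 alleles and a Cre recombinase driven by the murine Myh6 promoter, which deletes Zeb2 in cardiomyocytes, whereas the Zeb2 fl/fl mice, labelled WT, are the controls. The labels place the tissue in the border region of the infarct whereas the remote zone is named in the study's methods, and mice with Cre alone were not analysed here. The comparison asks which transcripts of the infarcted heart differ when cardiomyocytes lack ZEB2.

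Matricellular proteins are secreted into the extracellular matrix but serve less as its scaffold than as signals between matrix and cells, through integrins and other receptors. Many of their genes are little expressed in the uninjured adult heart, and after an infarct activated fibroblasts and macrophages make them while collagen is laid down. Periostin (Postn), tenascin C (Tnc), SPARC and CTHRC1 are made largely by fibroblasts of the scar, osteopontin (Spp1) to a large part by macrophages, and the thrombospondins (Thbs1 to Thbs4) by several cell types. Thrombospondin 1 is also known as an inhibitor of blood vessel growth and an activator of latent TGF-beta.

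All 9 genes lie on autosomes of GRCm38 and are annotated as protein coding. Postn spans chr3:54361109-54391037 on the plus strand, Spp1 chr5:104435118-104441050 (plus), Tnc chr4:63959785-64047015 (minus), Sparc chr11:55394500-55423183 (minus) and Cthrc1 chr15:39076932-39087121 (plus). Thbs1 spans chr2:118111876-118127133 (plus), Thbs2 chr17:14665500-14694235 (minus), Thbs3 chr3:89215180-89226837 (plus) and Thbs4 chr13:92751590-92794818 (minus). Exons of 3 of the genes overlap a gene on the opposite strand, Thbs3 by 318 bases with Mtx1, Thbs1 by 208 bases with Gm29233 and Tnc by 176 bases with 8030451A03Rik. Spp1 shares 309 exon bases with Gm42793 on its own strand. The strand option of the authors' counting is not given in the sources used here, so reads from the antisense stretches may belong to either gene.

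ZEB2 is a zinc finger factor that binds CACCT boxes, and the promoters are shown for the presence of this box. RefSeq (GRCm38.p6) gave a window from 250 bases before to 50 bases after a transcription start for 7 of the 9 genes. Thbs1 and Cthrc1 had no entry. CACCT was searched on both strands and was present in 4 of these 7 windows (Spp1, Sparc, Thbs3 and Thbs4), against 51.9% of the 32851 windows of all genes. The longer CACCTG, every match of which is also a CACCT match, was present in 3 of 7 (Spp1, Sparc and Thbs4), against 20.2% of all windows. A TATAAA sequence was present in 4 of 7 (Postn, Spp1, Tnc and Thbs2), against 13.6%, and the AP-1 site TGANTCA in 0 of 7, against 7.81%. For Sparc the RefSeq start lies 3103 bases from the start of the Gencode gene, so this window may not be the promoter in use. Printed 5′ to 3′ on the strand of the gene, with CACCT boxes of either strand in capitals, are Spp1 (chr5:104434861-104435160, plus) and Thbs4 (chr13:92794769-92795068, minus), each with 2 boxes, and Postn (chr3:54360857-54361156, plus) and Thbs2 (chr17:14694213-14694512, minus), which have none. These 4 were chosen to show windows with and without the box, Spp1 and Thbs2 also because their groups are ordered in opposite ways without Zeb2 fl/fl replicate 2, as given below. Where RefSeq lists several starts, as for Postn and Spp1, the one nearest to the Gencode start was used.
Spp1: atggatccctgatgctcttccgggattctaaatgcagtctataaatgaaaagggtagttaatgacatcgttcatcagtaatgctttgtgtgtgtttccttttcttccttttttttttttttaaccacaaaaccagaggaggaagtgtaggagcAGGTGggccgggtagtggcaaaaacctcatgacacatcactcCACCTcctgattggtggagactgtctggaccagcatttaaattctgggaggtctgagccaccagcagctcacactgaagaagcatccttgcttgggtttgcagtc
Thbs4: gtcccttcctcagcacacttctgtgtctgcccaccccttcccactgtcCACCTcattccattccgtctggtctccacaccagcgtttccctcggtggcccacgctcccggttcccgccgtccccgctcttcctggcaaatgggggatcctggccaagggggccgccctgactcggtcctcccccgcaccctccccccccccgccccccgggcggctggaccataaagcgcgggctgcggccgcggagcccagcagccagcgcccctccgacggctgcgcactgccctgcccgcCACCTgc
Postn: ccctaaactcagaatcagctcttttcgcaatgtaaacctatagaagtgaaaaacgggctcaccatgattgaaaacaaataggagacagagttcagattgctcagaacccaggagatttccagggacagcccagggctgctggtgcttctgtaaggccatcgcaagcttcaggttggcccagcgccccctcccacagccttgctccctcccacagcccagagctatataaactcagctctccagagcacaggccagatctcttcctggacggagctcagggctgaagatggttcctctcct
Thbs2: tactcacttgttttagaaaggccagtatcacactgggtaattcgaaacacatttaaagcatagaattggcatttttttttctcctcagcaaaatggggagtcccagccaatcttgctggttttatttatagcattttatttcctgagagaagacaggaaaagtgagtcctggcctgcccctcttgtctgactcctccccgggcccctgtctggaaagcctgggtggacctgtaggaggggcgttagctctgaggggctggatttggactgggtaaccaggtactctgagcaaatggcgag
These matches describe sequence only, and ZEB2 binding was not measured in these libraries.

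Libraries held 37288174 to 51136331 counts, of which 14301225 to 19024394 lay outside the mitochondrially encoded genes. Levels are given as CPM, read counts scaled to a common library size after TMM normalization. Zeb2, the deleted gene, measured 61.3, 116 and 71.9 CPM in Zeb2 fl/fl hearts (replicates 1, 2 and 3 in this order here and below) against 59.6, 72.6 and 66.5 CPM in Zeb2 cKO hearts, with overlapping groups and a log2 fold change of -0.33 (SE 0.25, edgeR adjusted p = 0.957). The Zeb2 cKO mean of Zeb2 was 0.994 times the mean of Zeb2 fl/fl replicates 1 and 3. The paper reports lower cardiac Zeb2 in Zeb2 cKO mice by qPCR, and its loss from cardiomyocytes after MI by qPCR and immunofluorescence. Without Zeb2 fl/fl replicate 2, these libraries did not show such a drop. The paper also found ZEB2 in other cells, including macrophages. Which cells gave the Zeb2 reads here was not tested, so these values do not show the extent of the deletion in cardiomyocytes. The library of Zeb2 fl/fl replicate 2 stood apart from the other 5. The summed level of 16 cardiomyocyte genes was 38383 CPM there and 60379 to 74146 CPM elsewhere, and that of 20 macrophage genes was 1129 CPM against 271 to 376 CPM. In bulk tissue, fewer cells of a type and less RNA per cell cannot be told apart. Results below are therefore given with and without this library.

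All 9 matricellular genes had their highest level in Zeb2 fl/fl replicate 2, and all 9 had a lower mean in Zeb2 cKO than in Zeb2 fl/fl hearts. None passed the test over all genes. Their log2 fold changes, Zeb2 cKO against Zeb2 fl/fl, ran from -2.83 (Spp1) to -0.61 (Thbs3), with a median of -1.19 beside -0.0069 over all 14746 tested genes. With Zeb2 fl/fl replicate 2 left out, 4 of these 9 genes were below 0 and the median was 0.019, beside 0.0025 over the 14966 genes then tested.

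With all 6 libraries, 9 of 9 genes had a log2 fold change under -0.2, as did 22.6% of all tested genes, and 0 of 9 had one over 0.2, as did 15.9%. The adjusted p was 0.957 in each (edgeR's quasi-likelihood test, Benjamini-Hochberg adjustment over all tested genes), and 0% of all genes passed an adjusted p of 0.05 in either direction, beside 280 genes with an unadjusted p under 0.05. DESeq2 called 2 genes in the whole table, neither of them among the 9, and gave no p for Spp1 and Cthrc1. Of the 9, 1 gene, Spp1, had an unadjusted p under 0.05 in edgeR's test with a lower level in Zeb2 cKO hearts, beside 0.861% of all tested genes. This count was 5 without Zeb2 fl/fl replicate 1, 4 without Zeb2 fl/fl replicate 3 and 3 with no filter on low counts. In the same order, 1134 of 15075, 379 of 15075 and 600 of 24115 tested genes were under 0.05 in either direction. The count among the 9 was 0 without Zeb2 fl/fl replicate 2 or without Zeb2 cKO replicate 1 or 2. The groups did not overlap in 1 of the 9, again Spp1, beside 6.36% of all tested genes. Highest in Zeb2 fl/fl replicate 2 were 35.2% of all tested genes, and 9.33% exceeded the mean of the other 5 libraries by more than 1 on the log2 scale there, as all 9 matricellular genes did.

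**Figure D1:**
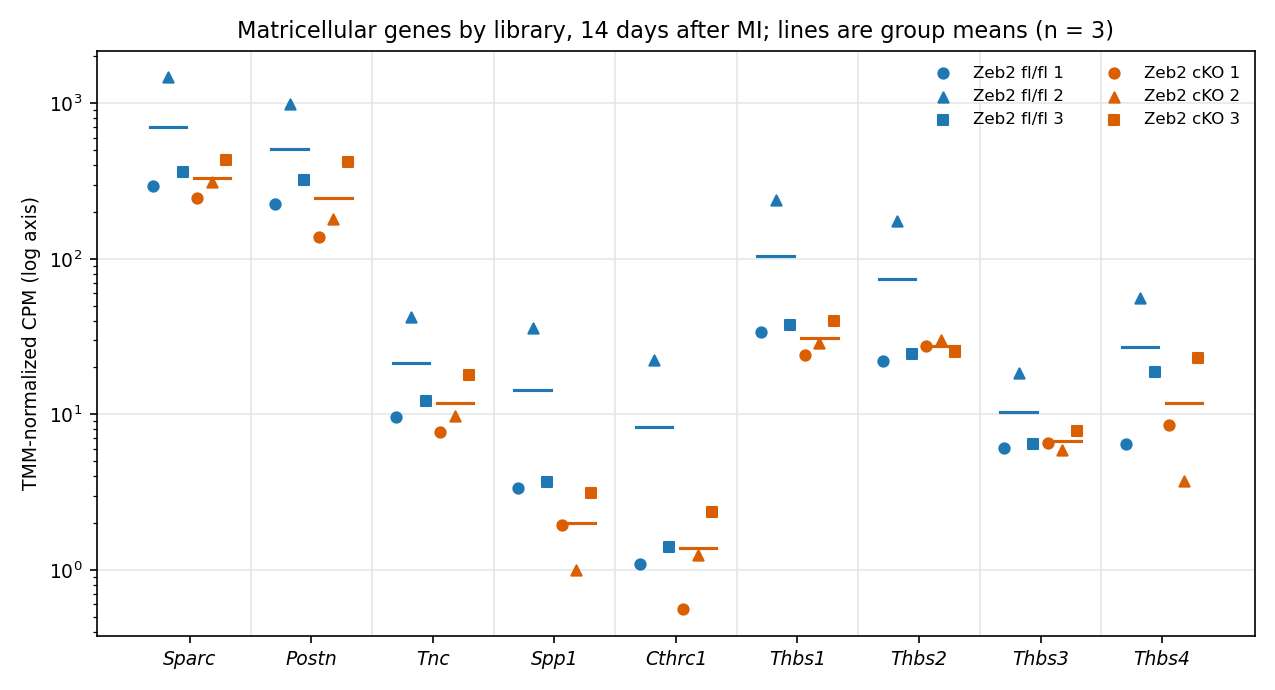
CPM of the 9 matricellular genes in each library (log axis), Zeb2 fl/fl (WT) in blue and Zeb2 cKO in orange, with lines at the group means (n = 3 each). For every gene the highest point is Zeb2 fl/fl replicate 2, and in 8 of the 9 genes the highest Zeb2 cKO library is replicate 3.

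Levels of different genes were compared as mean CPM per kilobase of annotated exon over the 6 libraries. Sparc was highest at 137 ± 124 (SD, n = 6), above 99.4% of tested genes, and Postn came next at 43.5 ± 36.1. Sparc exceeded Postn, and Postn exceeded Thbs1, in 6 of 6 libraries. Thbs1 followed at 11.1 ± 13.9 and was above Thbs2 at 7.26 ± 8.75 in 6 of 6 libraries as well. From Thbs2 downwards the order was not stable between libraries, and Thbs4 exceeded Thbs2 in 2 of 6 libraries and Thbs1 in Zeb2 cKO replicate 3 (7.03 against 6.52 CPM per kilobase). Thbs4 was at 5.91 ± 5.92, Spp1 at 4.96 ± 8.29, Cthrc1 at 3.03 ± 5.39, Tnc at 2.13 ± 1.69 and Thbs3 at 1.77 ± 1.01 CPM per kilobase, and Cthrc1 was above Tnc in 1 of 6 libraries only. By the median of the 6 libraries Thbs4 came before Thbs2, at 4.14 against 3.76 CPM per kilobase, and Cthrc1 was last, at 0.832 CPM per kilobase.

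Among the fibroblast products, Postn encodes periostin, which binds integrins and promotes collagen crosslinking. Its Zeb2 fl/fl levels were 226, 985 and 322 CPM, and those of the Zeb2 cKO hearts 138, 181 and 418 CPM. Zeb2 cKO replicate 3 lay above both Zeb2 fl/fl replicates 1 and 3, and the groups overlapped. Its log2 fold change was -1.06 (SE 0.65). Sparc, a collagen-binding glycoprotein that acts in procollagen processing, measured 293, 1467 and 361 CPM in Zeb2 fl/fl and 247, 309 and 434 CPM in Zeb2 cKO hearts. Its log2 fold change was -1.10 (SE 0.63), and its Zeb2 cKO mean was 1.01 times the mean of Zeb2 fl/fl replicates 1 and 3. Tnc, a large hexameric glycoprotein of wound margins, measured 9.61, 42.4 and 12.1 CPM in Zeb2 fl/fl and 7.69, 9.77 and 17.9 CPM in Zeb2 cKO hearts. The log2 fold change of Tnc was -0.86 (SE 0.61), and Zeb2 cKO replicate 3 was again second highest of the 6. For Postn, Sparc and Tnc the exact permutation test over the libraries gave two-sided p of 0.4, 0.6 and 0.6, where 3 samples against 3 cannot give less than 0.1.

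Cthrc1, a secreted protein of activated scar fibroblasts, had the largest excess of the 9 in a single library. Its Zeb2 fl/fl levels were 1.09, 22.3 and 1.41 CPM, and those of the Zeb2 cKO hearts 0.560, 1.24 and 2.34 CPM. Zeb2 fl/fl replicate 2 was 17.9 times the mean of the other Zeb2 fl/fl libraries. The log2 fold change was -2.58 (SE 1.21), and the remaining libraries of the groups overlapped (exact permutation p = 0.5). Counts of Cthrc1 were 979 in Zeb2 fl/fl replicate 2 and low in the other 5 libraries, from 28 in Zeb2 cKO replicate 1 (95% Poisson interval 0.372 to 0.809 CPM, counting error only) to 126 in Zeb2 cKO replicate 3.

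Spp1 encodes osteopontin, a phosphoprotein that binds integrins and CD44. It measured 3.35, 36.0 and 3.70 CPM in Zeb2 fl/fl and 1.94, 0.991 and 3.11 CPM in Zeb2 cKO hearts. All 3 Zeb2 fl/fl libraries lay above all 3 Zeb2 cKO libraries, with a log2 fold change of -2.83 (SE 1.01, exact permutation p = 0.1). The margin rests on few reads. The lowest Zeb2 fl/fl library had 126 counts (3.35 CPM, 95% Poisson interval 2.79 to 3.98) and the highest Zeb2 cKO library had 167 counts (3.11 CPM, 2.65 to 3.62), so these intervals overlap. When counts were scaled by library totals alone, the groups of Spp1 overlapped.

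The thrombospondins divide into the trimeric Thbs1 and Thbs2 and the pentameric Thbs3 and Thbs4. Thbs1 measured 34.0, 239 and 37.6 CPM in Zeb2 fl/fl and 24.2, 28.9 and 39.6 CPM in Zeb2 cKO hearts, a log2 fold change of -1.75 (SE 0.77, exact permutation p = 0.3). Zeb2 cKO replicates 1 and 2 lay below every Zeb2 fl/fl library, and replicate 3 did not. Thbs2, also an inhibitor of blood vessel growth, measured 22.0, 176 and 24.4 CPM in Zeb2 fl/fl and 27.4, 30.1 and 25.3 CPM in Zeb2 cKO hearts. Its log2 fold change was -1.43 (SE 0.79, exact permutation p = 1). All 3 Zeb2 cKO libraries of Thbs2 lay above Zeb2 fl/fl replicates 1 and 3, the order opposite to the sign of the fold change. It was also the only one of the 9 in which Zeb2 cKO replicate 3 was the lowest Zeb2 cKO library.

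Thbs3, the thrombospondin with the smallest difference, measured 6.08, 18.4 and 6.48 CPM in Zeb2 fl/fl and 6.55, 5.85 and 7.84 CPM in Zeb2 cKO hearts (log2 fold change -0.61, SE 0.43, exact permutation p = 0.7). Mtx1 on its opposite strand was lowest in Zeb2 fl/fl replicate 2, at 5.24 CPM against 6.25 to 8.01 CPM in the other libraries. Thbs4, known in the heart for a protective endoplasmic reticulum stress response, measured 6.45, 56.1 and 18.6 CPM in Zeb2 fl/fl and 8.59, 3.73 and 23.1 CPM in Zeb2 cKO hearts. Replicates of both groups differed widely, the Zeb2 cKO libraries by 6.20 times between the lowest and the highest. The log2 fold change of Thbs4 was -1.19 (SE 0.88, exact permutation p = 0.5).

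Libraries of the same genotype varied widely for these genes, more in Zeb2 fl/fl than in Zeb2 cKO hearts. The SD of log2 CPM within the groups ran from 0.65 (Thbs3) to 1.83 (Cthrc1), beside a median of 0.26 over all tested genes. These values include Zeb2 fl/fl replicate 2. Within the Zeb2 fl/fl libraries the SD ran from 0.89 (Thbs3) to 2.39 (Cthrc1), and it was above the Zeb2 cKO SD for every gene. Within the Zeb2 cKO libraries alone the SD ran from 0.13 for Thbs2, larger than in 37.6% of tested genes, to 1.31 for Thbs4, larger than in 99.5%. For Postn the Zeb2 cKO SD was 0.83 and for Cthrc1 0.99, larger than in 98.2% and 99.0% of tested genes. Thbs2 and Thbs3 had the narrowest Zeb2 cKO ranges of the 9, with 1.19 and 1.34 times between the lowest and the highest library.

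Leaving out Zeb2 fl/fl replicate 2 moved every fold change upwards. Then 2 of the 9 genes had a log2 fold change under -0.2, beside 11.7% of all tested genes, and 1 had one over 0.2, beside 14.2%. The 2 lower genes were Spp1 at -0.79 and Thbs1 at -0.21, and the higher gene was Thbs2 at 0.25. Postn was at -0.15 and Thbs4 at -0.073, while Tnc was at 0.12, Sparc at 0.019, Thbs3 at 0.11 and Cthrc1 at 0.16. The groups did not overlap in 2 of 9 genes, Spp1 lower and Thbs2 higher in Zeb2 cKO, beside 15.5% of all tested genes. The smallest adjusted p among the 9 was then 1.00 (edgeR), and Thbs2 had the smallest unadjusted p of the 9, above 0.05, where 393 genes of the whole table were under 0.05. With any other single library left out, all 9 genes stayed under -0.2. Without Zeb2 cKO replicate 3 the groups did not overlap in 3 of 9 genes, Spp1, Postn and Thbs1, beside 22.6% of all tested genes.

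**Figure D2:**
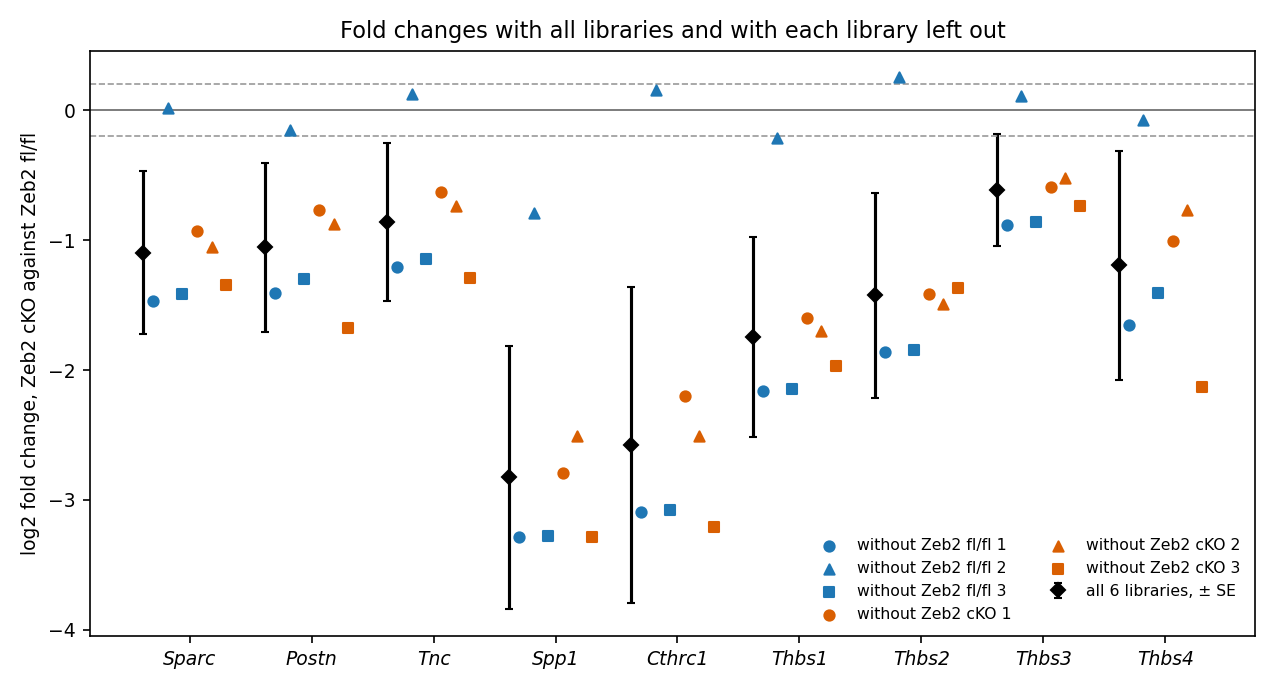
Log2 fold change of each matricellular gene (Zeb2 cKO against Zeb2 fl/fl) with all 6 libraries (black, ± SE) and with each library left out (colours and symbols), and dashed lines at the cutoffs of -0.2 and 0.2. Without Zeb2 fl/fl replicate 2 every gene lies at its highest value, between -0.79 (Spp1) and 0.25 (Thbs2), and without any other library every gene stays under -0.2.

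Of 10 fibrillar collagen genes, which make the bulk of scar matrix, 8 were also highest in Zeb2 fl/fl replicate 2. In the fit with all libraries 8 of the 10 had a log2 fold change under -0.2 and 0 over 0.2 (median -1.06), and without that library 2 were under and 1 over (median -0.061). The sum of Col1a1, Col1a2 and Col3a1 was 7062 CPM there and 904 to 1371 CPM in the other 5 libraries. Each matricellular gene was therefore set against this sum within each library, a ratio that needs no normalization between libraries. Per 1000 collagen counts, Spp1 was at 3.09, 5.09 and 3.04 in Zeb2 fl/fl and at 2.15, 0.877 and 2.27 in Zeb2 cKO hearts, and the groups did not overlap. Thbs1 per 1000 collagen counts was at 31.4, 33.9 and 30.9 in Zeb2 fl/fl (32.1 ± 1.58, SD, n = 3) and at 26.8, 25.5 and 28.9 in Zeb2 cKO hearts (27.1 ± 1.69, SD, n = 3), again without overlap. The log2 ratio differed between genotypes by -1.16 for Spp1 and -0.25 for Thbs1, each with an exact permutation p of 0.1 (two-sided), the smallest possible here, among 9 ratios tested. These 2 of 9 genes stand beside 3.59% of all tested genes whose ratio to the collagens did not overlap between the groups. The collagen sum itself overlapped between the groups, so a gene that does not vary with it can overlap through the denominator alone. The share of all genes therefore cannot show whether 2 of 9 is unusual for genes that vary with the collagens.

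The other 7 ratios overlapped, with exact permutation p from 0.4 to 1. Sparc per 1000 collagen counts was at 271, 208 and 296 in Zeb2 fl/fl and at 274, 274 and 317 in Zeb2 cKO hearts. The ratio of Postn was at 209, 139 and 265 in Zeb2 fl/fl and at 153, 161 and 305 in Zeb2 cKO hearts. Both had their highest ratio in Zeb2 cKO replicate 3. The ratio of Tnc was at 8.88, 6.01 and 9.95 in Zeb2 fl/fl and at 8.51, 8.65 and 13.0 in Zeb2 cKO hearts. Cthrc1 had ratios of 1.01, 3.16 and 1.16 in Zeb2 fl/fl and of 0.619, 1.10 and 1.71 in Zeb2 cKO hearts. The remaining thrombospondins also overlapped between the groups. Thbs2 had a ratio of 21.8 ± 2.73 (SD, n = 3) in the controls against 25.1 ± 6.07 (SD, n = 3) after deletion of Zeb2. In the same order of genotypes the ratios were 5.62, 2.60 and 5.33 against 7.25, 5.18 and 5.71 for Thbs3, and 5.96, 7.95 and 15.3 against 9.51, 3.31 and 16.9 for Thbs4. Relative to collagen, Zeb2 fl/fl replicate 2 was thus the lowest library for Sparc and Postn, and also for Tnc and Thbs3, while it was the highest for Spp1, Thbs1 and Cthrc1. Cthrc1 there was 2.82 times and Thbs3 0.447 times the mean ratio of the other 5 libraries. The ratio of Thbs1 differed by -0.29 to -0.21 and that of Spp1 by -1.40 to -0.72 on the log2 scale with each library left out. With 16 resident fibroblast genes as the denominator, the groups of Thbs1 overlapped (log2 difference -0.92, exact permutation p = 0.3), and those of Spp1 did not.

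**Figure D3:**
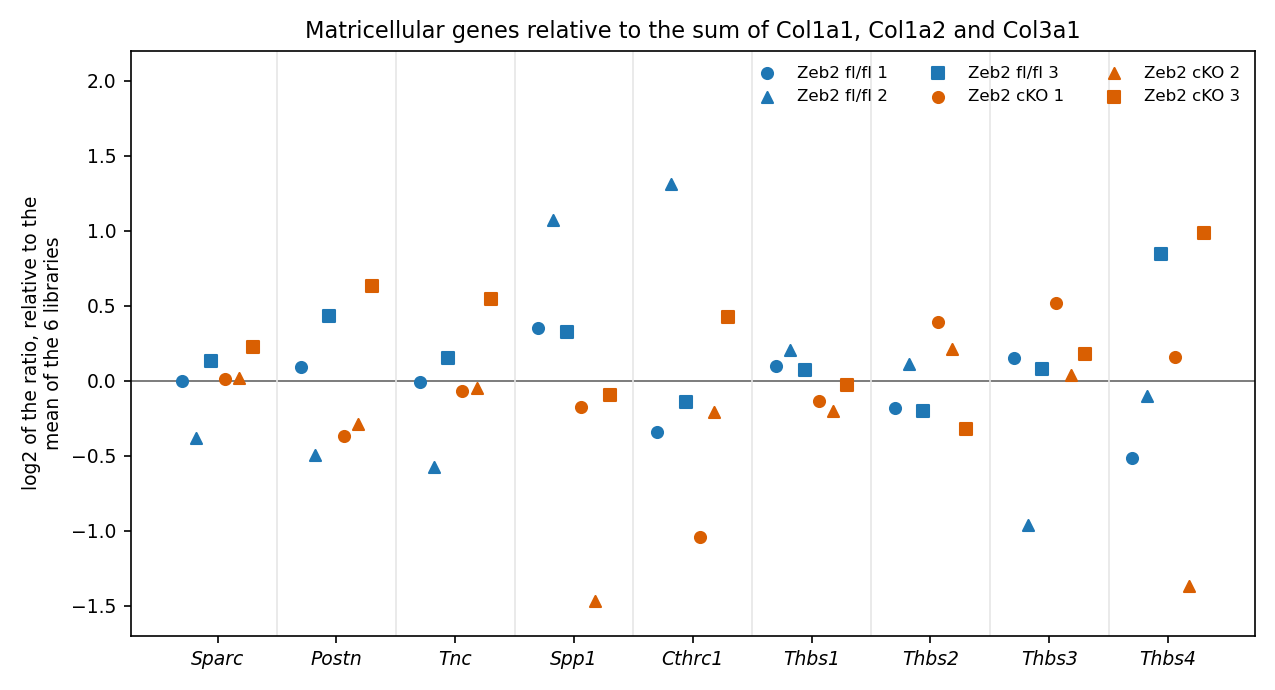
Log2 ratio of each matricellular gene to the sum of Col1a1, Col1a2 and Col3a1 in each library, relative to the mean of the 6 libraries (blue, Zeb2 fl/fl; orange, Zeb2 cKO). The Zeb2 fl/fl points of Spp1 and Thbs1 lie above all Zeb2 cKO points, and the triangle of Zeb2 fl/fl replicate 2 is lowest for Sparc, Postn, Tnc and Thbs3.

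A list of 28 other matricellular genes was examined in the same fit. Of these, 21 were tested, 14 had a log2 fold change under -0.2 and 1 over 0.2, 0 passed an adjusted p of 0.05, and the median was -0.45. Ccn2 (connective tissue growth factor) had the smallest p, at 80.8, 340 and 87.5 CPM in Zeb2 fl/fl and 39.0, 49.0 and 93.1 CPM in Zeb2 cKO hearts, a log2 fold change of -1.49 (SE 0.63) and of -0.48 without Zeb2 fl/fl replicate 2. Comp, the fifth thrombospondin and also a gene of the activated fibroblast list below, measured 5.97, 146 and 10.1 CPM in Zeb2 fl/fl and 5.06, 7.51 and 14.1 CPM in Zeb2 cKO hearts, highest in Zeb2 fl/fl replicate 2 and lowest in Zeb2 cKO replicate 1 like Cthrc1. For Ccn5, another member of the CCN family, the log2 fold change was -2.11 (SE 0.96), and it was 0.036 without that library. Fstl1, a secreted follistatin-like glycoprotein and the highest of the list in CPM, was at 690 CPM in Zeb2 fl/fl replicate 2 and at 125 to 230 CPM in the other libraries. Sparcl1, a relative of Sparc, had the opposite pattern, with 156 CPM in Zeb2 fl/fl replicate 2 and 193 to 256 CPM elsewhere. When Zeb2 fl/fl replicate 2 was left out, 2 of these 21 genes were under -0.2 and 6 over 0.2, with a median of 0.066.

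The receptors of these proteins were examined next. All 22 listed integrins and other receptors were tested, of which 10 had a log2 fold change under -0.2 and 2 over 0.2, with a median of -0.17, and 0 passed an adjusted p of 0.05. Their summed level was 2328 CPM in Zeb2 fl/fl replicate 2 and 1876 to 2058 CPM in the other libraries, where the sum of the 9 matricellular genes was 3042 CPM against 462 to 972 CPM. Sdc4, a heparan sulfate receptor that binds several matrix proteins, had the smallest p. It measured 11.9, 22.6 and 11.3 CPM in Zeb2 fl/fl and 11.0, 11.0 and 9.58 CPM in Zeb2 cKO hearts, with groups that did not overlap (log2 fold change -0.54, SE 0.28, and -0.14 without Zeb2 fl/fl replicate 2). Sdc4 was the only 1 of the 22 receptors without overlap, beside 6.36% of all tested genes. The integrin subunit Itgb5 had a log2 fold change of -0.68 (SE 0.35) and Lrp1, an endocytic receptor for thrombospondins, one of -0.72 (SE 0.37). Without Zeb2 fl/fl replicate 2 these were -0.13 for Itgb5 and -0.17 for Lrp1. Cd36, a thrombospondin receptor and fatty acid transporter that the heart expresses strongly, was the highest of the list and lowest in Zeb2 fl/fl replicate 2, at 485 CPM against 747 to 843 CPM. When Zeb2 fl/fl replicate 2 was left out, 0 of these 22 receptors were under -0.2 and 3 over 0.2.

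Marker genes of cell types of the infarcted heart also stood apart in Zeb2 fl/fl replicate 2. For 17 activated fibroblast genes the summed level was 1922 CPM there and 276 to 501 CPM elsewhere, and 15 of the 16 tested had a log2 fold change under -0.2 (median -1.36). For 16 resident fibroblast genes it was 3178 CPM against 1085 to 1608 CPM, with 12 of 16 under -0.2 (median -0.51). In the macrophage list 19 of 20 genes were under -0.2 (median -0.93). The cardiomyocyte list had 2 of 16 genes under and 4 over (median 0.14), the endothelial list 2 of 15 under and 2 over (median 0.14), and the smooth muscle and pericyte list 2 of 14 under and 4 over (median 0.073). The endothelial sum was 783 CPM in Zeb2 fl/fl replicate 2 and 947 to 1151 CPM elsewhere, and the smooth muscle sum was 1217 CPM against 1624 to 1853 CPM. The smooth muscle sum mainly follows its highest genes, Des, Rgs5 and Abcc9, with means of 660, 487 and 243 CPM. Of its 14 genes, 2 were highest in that library, Tagln (20.8 against 9.31 to 11.8 CPM) and Pdgfrb (127 against 66.5 to 78.9 CPM). In these 6 cell type lists, 0 genes were without counts in any library. Without Zeb2 fl/fl replicate 2, the medians were -0.026 for activated fibroblast, 0.20 for resident fibroblast, -0.0018 for macrophage, -0.097 for cardiomyocyte, -0.015 for endothelial and 0.00026 for smooth muscle and pericyte genes. In all these lists 0 genes passed an adjusted p of 0.05.

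Several single marker genes stood apart in Zeb2 fl/fl replicate 2. Lox, the collagen crosslinking enzyme of activated fibroblasts, measured 14.4, 209 and 19.9 CPM in Zeb2 fl/fl and 9.13, 10.9 and 21.6 CPM in Zeb2 cKO hearts. Gpnmb, a gene of phagocytic macrophages, was at 26.0 CPM in Zeb2 fl/fl replicate 2 and at 1.17 to 2.76 CPM elsewhere. Myh6, the main myosin heavy chain of adult mouse cardiomyocytes, was at 2767 CPM there and at 6733 to 8979 CPM elsewhere. Of the 16 cardiomyocyte genes, 2 were highest there, Nppa (717 against 131 to 337 CPM) and Nppb (318 against 117 to 224 CPM). Nppa had the smallest p of its list, with groups that did not overlap. Its log2 fold change was -1.42 (SE 0.36), and -0.93 without that library. Of the 20 macrophage genes, 19 were highest there, and Cd163 was lowest, at 1.62 against 5.83 to 8.34 CPM. Zeb2 cKO replicate 3, the highest Zeb2 cKO library for 8 of the 9 matricellular genes, also had the highest activated fibroblast sum of its group, at 501 CPM against 276 and 340 CPM, but not the highest macrophage sum (323 CPM against 345 and 337 CPM). Whether cell content or a change within cells gave these values was not tested.

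**Figure D4:**
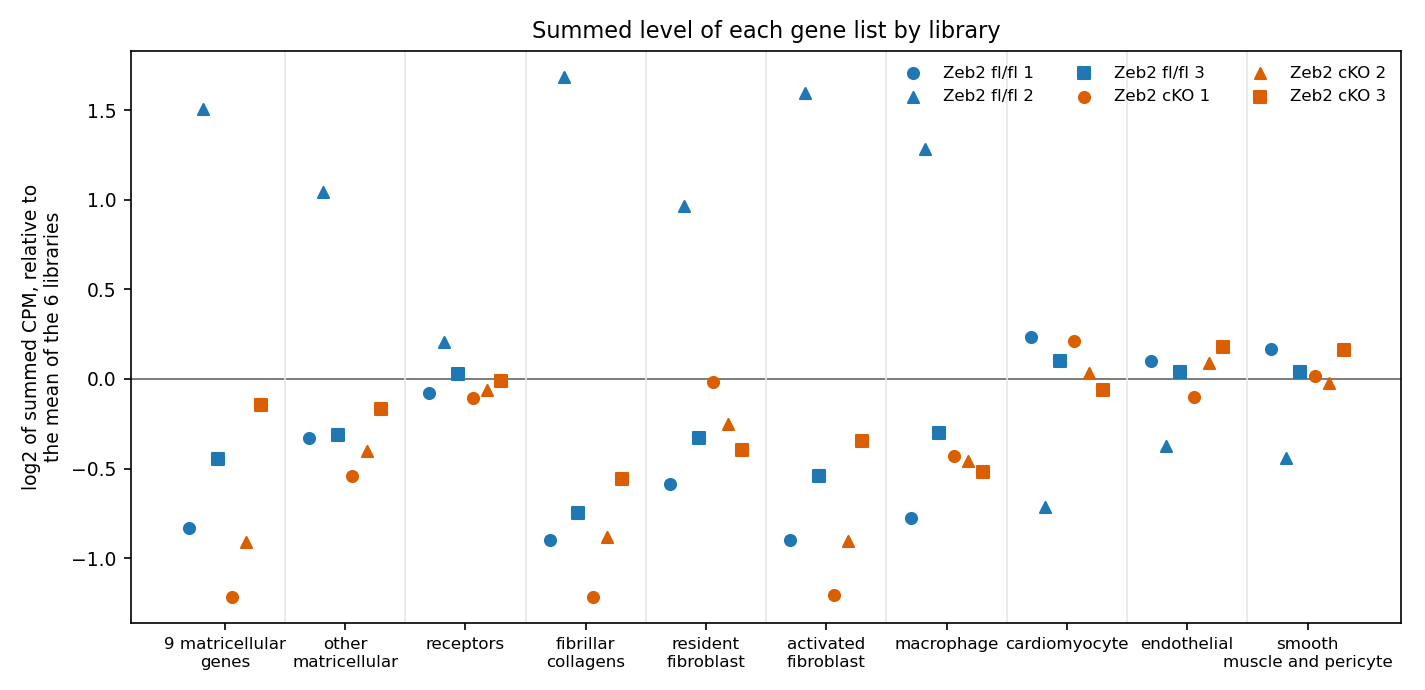
Summed CPM of each gene list by library, as log2 relative to the mean of the 6 libraries (blue, Zeb2 fl/fl; orange, Zeb2 cKO). Zeb2 fl/fl replicate 2 is the highest point for the matricellular, receptor, collagen, fibroblast and macrophage lists and the lowest for the cardiomyocyte, endothelial and smooth muscle lists.

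Genes that varied over the libraries most like the 9 were ranked by Pearson's r of log2 CPM with the mean of their standardized log2 CPM. Over the 6 libraries Fn1 (fibronectin), another adhesive protein of the scar, came first with r = 1.00. Then came Pik3cd, a leukocyte phosphoinositide kinase, Enpp1, Heg1, Mmgt2, Vgll3, Lrrk1, Sh3bgrl3, Irak4 and Eya4, with r of 0.997 or more. The single most similar gene was Nid1, a basement membrane protein, for Sparc, Nup160 for Postn, Adam8 for Spp1, Nrep for Tnc and Nav1 for Cthrc1. For the thrombospondins it was Cytip for Thbs1, Il1b, the inflammatory cytokine interleukin 1 beta, for Thbs2, Pde1a for Thbs3 and Gm13378 for Thbs4. These values describe 6 libraries that the genes share, with Zeb2 fl/fl replicate 2 far from the other 5. Over all tested genes, r was above 0.9 for 1814 genes (12.3%). With Zeb2 fl/fl replicate 2 left out, 1 of the 10 genes most like the mean (Eya4) remained among the 10 most alike. Among the partners of single genes, Il1b then ranked 357 for Thbs2 (r = 0.870) and Cytip 61 for Thbs1. The other partners ranked from 2 (Nid1) to 18 (Pde1a and Nav1).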

How the data were processed

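Expression was measured by RNA-seq in 3 Zeb2 fl/fl samples (labelled WT) and 3 Zeb2 cKO samples, grouped by their titles. The labels do not say that the samples of a group are separate mice, and p-values measure the spread between these samples. A single table of raw gene counts was deposited by the authors, made from stranded single-end reads of RNA depleted of ribosomal RNA with the STAR workflow on Gencode M4 (GRCm38). The STAR version and the strand option are not given in the sources used here. Of the columns, 0 were left unmatched. Symbols, coordinates and lengths came from Gencode M21 of the same build. Antisense overlaps and near-identical copies (at least 75 bases at 95% identity on the same strand, BLAST 2.17.0) were searched for the 9 genes. Only Spp1 had such a stretch, 12.0% of its longest transcript, shared with Gm42793, which is not in the table.

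Counts were filtered with filterByExpr, normalized with TMM and tested with edgeR 4.0.16 (R 4.3.3, glmQLFit and glmQLFTest), with Benjamini-Hochberg adjustment over all tested genes. The prior count was 0.125 for fold changes and 2 for log2 CPM. SE is the log2 fold change divided by the root of its F statistic. Single genes and ratios were compared by exact permutation tests over the libraries, two-sided, on log2(CPM + 0.5) or the log2 ratio, which uses no pseudocount. Poisson intervals cover counting error only. The code was tested on simulated data. Alternatives were DESeq2 1.42.0, other normalizations, no filter on low counts, robust dispersions, removal of mitochondrially encoded genes, a replicate block, a cutoff of 0.5, other lengths and denominators, and leaving out each library. Named genes were the 9, Zeb2, Col1a1, Col1a2 and Col3a1, in each list the 3 with the smallest p and the 2 highest in CPM, and the genes most alike, of which not all are printed. Mtx1 was added after its values were seen. The 9 genes and the lists were chosen with earlier results of these data known.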

Additional observations from a re-analysis of the deposited data

How the results depend on the processing

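The log2 fold changes of the 9 genes stayed below 0 and under -0.2 with other normalizations, no filter on low counts, robust dispersions, DESeq2, removal of mitochondrially encoded genes and the replicate block. With each library left out, the number under -0.2 was between 2 and 9, the number over 0.2 between 0 and 1, and the number whose groups do not overlap between 1 and 3, and it was 0 when counts were scaled by library totals. Leaving out each library gave log2 fold changes from -1.29 to 0.12 for Tnc, from -1.47 to 0.019 for Sparc, from -1.86 to 0.25 for Thbs2, from -0.88 to 0.11 for Thbs3 and from -3.21 to 0.16 for Cthrc1, above 0 only without Zeb2 fl/fl replicate 2. DESeq2's Wald test called 2 genes of the whole table and gave no p for 2 of the 9, Spp1 and Cthrc1. Every edgeR fit called 0 genes, beside 280 with an unadjusted p under 0.05 with all libraries, 122 without Zeb2 cKO replicate 1, 181 without Zeb2 cKO replicate 2, 1134 without Zeb2 fl/fl replicate 1 and 600 with no filter on low counts. Over all alternatives the adjusted p of the 9 genes was between 0.596 and 1.00.

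The log2 ratio to the collagens ran from -0.34 to 0.20 for Postn and from -0.68 to 0.50 for Thbs4 with each library left out, on both sides of 0. With resident fibroblast genes as the denominator, the difference was -0.39 for Tnc, -0.50 for Sparc, -0.49 for Thbs2 and -0.18 for Thbs3, against 0.29, 0.17, 0.19 and 0.49 with the collagens. These ratios overlapped between the groups. Leaving out a library shows only how far a value rests on that library, and the cause of these differences was not tested. The rank of each gene by CPM per kilobase was the same with the longest transcript as the length.

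Replicate numbers occur in both groups but the groups are different mice. Deviations of same-numbered libraries from their group means correlated at 0.088, -0.14 and -0.087, and the numbers were therefore not treated as pairs. With the replicate block the log2 fold changes ran from -1.85 (Spp1) to -0.41 (Thbs3), with 9 of 9 under -0.2 and 0 genes called, beside 247 with an unadjusted p under 0.05, of which 0 were among the 9.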
